A study of Mus musculus with 6 samples.

Results

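The scrambled control cells of a B16 melanoma study are described here on their own, across all genes. They were chosen by their titles, as the libraries of control cells, and make up 3 of the 6 RNA sequencing libraries of the series. The other libraries, of IFNγR1KO cells, were not used. The B16 line, given as WT in the labels, comes from a mouse melanoma, and the study used its BL6 subline. Per the study's methods, the cells had been transduced with a lentiviral vector that carries Cas9, a puromycin resistance gene and a scramble guide against GFP, a gene that mouse cells do not have. No cytokine was added, and the cells were grown in MEM with fetal bovine serum and seeded overnight in triplicate before RNA extraction. The libraries are therefore 3 cultures of 1 cell line. After puromycin selection, transduced cells were plated at about 1 cell per well and clones were screened. The sources used here do not say whether the control line itself is 1 such clone, and the spread between the libraries measures culture and library preparation, not the spread between tumors or mice.

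RNA was sequenced with paired-end reads after poly(A) selection, and the authors deposited the number of reads assigned to each of 55335 genes. Libraries 1, 2 and 3 held 9402640, 10579788 and 10196344 counts on genes. These are between 46.0% and 47.0% of the reads the files list, and the counting assigned most of the others to no gene. Whether those lie in introns, between genes or on the other strand of a gene was not tested. Levels are given on 2 scales. CPM, the counts scaled to the same total on genes in every library, compares 1 gene between libraries. TPM, counts per kilobase of exon scaled to the same total in every library, compares genes with each other. Values are means ± SD of the 3 libraries, and the CV is the SD over the mean of the CPM. A single count was worth 0.0945 to 0.106 CPM. A gene with 3 counts or fewer in each of the 3 libraries was taken as not detectable at this depth, a limit of 0.284 to 0.319 CPM that covers counting error only. The libraries did not repeat each other, since the chi-square per degree of freedom between pairs of libraries was 9.25 to 22.7, where counting error alone gives about 1.

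Melanocytes are the pigment cells of skin and hair. They arise from the neural crest, and the transcription factors SOX10 and PAX3 drive expression of MITF, the factor that turns on the pigment enzymes and the proteins of the melanosome, the organelle in which melanin is made and stored. Melanoma cells keep this program to differing degrees, and growth in melanoma is commonly driven through RAS, RAF and MAP kinases, through PI3K and AKT, and through loss of the cell cycle inhibitors encoded at Cdkn2a.

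The promoters of the 3 enzymes of melanin synthesis are shown because Dct had the most counts of all genes and because MITF is known to bind the letters CATGTG and CACGTG. The stretches end before the first annotated transcribed base and are in RefSeq's GRCm38.p6 sequence, read 5′ to 3′ along the gene's strand. Capitals mark CATGTG on either strand. No CACGTG was present in them. A match to one of these motifs cannot be a match to the other at the same bases.
Tyr, chr7:87493513-87493762, minus strand: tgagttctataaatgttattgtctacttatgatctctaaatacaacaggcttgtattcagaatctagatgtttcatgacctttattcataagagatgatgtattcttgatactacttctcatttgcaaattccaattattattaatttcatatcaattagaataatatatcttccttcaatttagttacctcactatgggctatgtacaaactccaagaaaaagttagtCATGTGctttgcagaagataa
Tyrp1, chr4:80833963-80834122, plus strand: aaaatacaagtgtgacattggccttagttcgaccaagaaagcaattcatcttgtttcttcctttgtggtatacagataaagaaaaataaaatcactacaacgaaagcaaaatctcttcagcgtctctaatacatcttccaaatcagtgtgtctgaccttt
Dct, chr14:118052247-118052496, minus strand: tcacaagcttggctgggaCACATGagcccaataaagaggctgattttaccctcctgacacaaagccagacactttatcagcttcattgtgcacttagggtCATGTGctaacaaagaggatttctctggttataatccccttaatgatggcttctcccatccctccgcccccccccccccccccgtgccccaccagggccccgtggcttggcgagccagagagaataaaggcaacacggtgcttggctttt
The Tyr stretch held 1 match, the Dct stretch held 2, and the shorter Tyrp1 stretch of 160 bases held none. Of 32851 RefSeq promoters, 12.3% hold CATGTG and 6.02% hold CACGTG in the 250 bases before the start, so a match alone does not show a site. The longer TCATGTG is held by 3.25% of them. Each match in the Tyr and Dct stretches extends to it on one strand or the other. Whether MITF binds there was not tested. Of the 10 melanocytic markers, Mitf is the other one with an entry in the promoter table used here.

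In total, 13693 genes had a mean of at least 1 CPM and are termed expressed, and 11121 of them are protein-coding. A further limit of 10 CPM was met by 9481 genes, 100 CPM by 2057 and 1000 CPM by 112. At least 1 count was found for 19367, 19015 and 18926 genes in libraries 1, 2 and 3, and 16886 genes had a count in every library. Of the genes of at least 10 CPM, 4926 had their highest CPM in library 3, 2712 in library 1 and 1843 in library 2, so that a highest value in library 3 was common. The counts were spread widely. The 10 highest genes took 6.97% ± 0.167 of a library's counts, the top 1000 took 55.5% ± 1.70, and it took 663 to 815 genes to reach 50 of every 100 counts. The median level of an expressed gene was 15.7 TPM, with 113 TPM at the 90th percentile and 1024 TPM at the 99th.

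The gene with the most counts was Dct, which encodes dopachrome tautomerase, an enzyme of melanin synthesis. It had 145095, 151205 and 129047 counts, or 15431, 14292 and 12656 CPM, with a CV of 9.87%. In this ranking by counts Dct was followed by Eef1a1, a translation elongation factor, at 9636 ± 462 CPM. Pmel, which forms the fibrils on which melanin is laid down, came next at 7288 ± 619.6 CPM, and Tyrp1, another melanin enzyme, came after it at 6952 ± 650.2 CPM. The remaining places went to the glycolytic enzymes Gapdh (6175 ± 1129.8 CPM) and Eno1 (3584 ± 563 CPM), the ferritin chains Ftl1 (6153 ± 337 CPM) and Fth1 (4278 ± 104 CPM), the melanosomal glycoprotein gene Gpnmb (5188 ± 369 CPM) and Gm10252 (5609.5 ± 235 CPM). Thus 4 of the 10 genes with the most counts belong to the pigment program. Gm10252 is an unsupported gene model on chromosome 7 whose exons lie for 42.7% opposite those of other genes. The strand setting of the counting is not given in the sources used here. How many of the reads of Gm10252 come from its overlap partners was not tested.

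Per length, the order changed. Among protein-coding genes Rplp1, a protein of the ribosomal stalk, came first at 11493, 15050 and 10219 TPM, and Ftl1 and Eef1a1 came next at 11827 ± 469 TPM and 9957 ± 383 TPM. Rpl36 and Rps15, both ribosomal proteins, stood at places 4 and 7 at 8442 ± 1750.3 TPM and 6983 ± 1369 TPM. The lineage genes Pmel, Mlana, Tyrp1 and Dct took places 5, 6, 8 and 9, and Lgals1, the gene of galectin-1, took the tenth at 6086 ± 681 TPM. Neighbours in this order overlapped between libraries, other than Ftl1 and Eef1a1. The libraries of Tyrp1, for example, ranged from 5672 to 7533 TPM and those of Dct from 5939 to 6576 TPM. Ribosomal protein genes, Eef1a1, Gapdh and Ftl1 have many near-identical pseudogenes, to which some of their reads may have been lost.

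**Figure D1:**
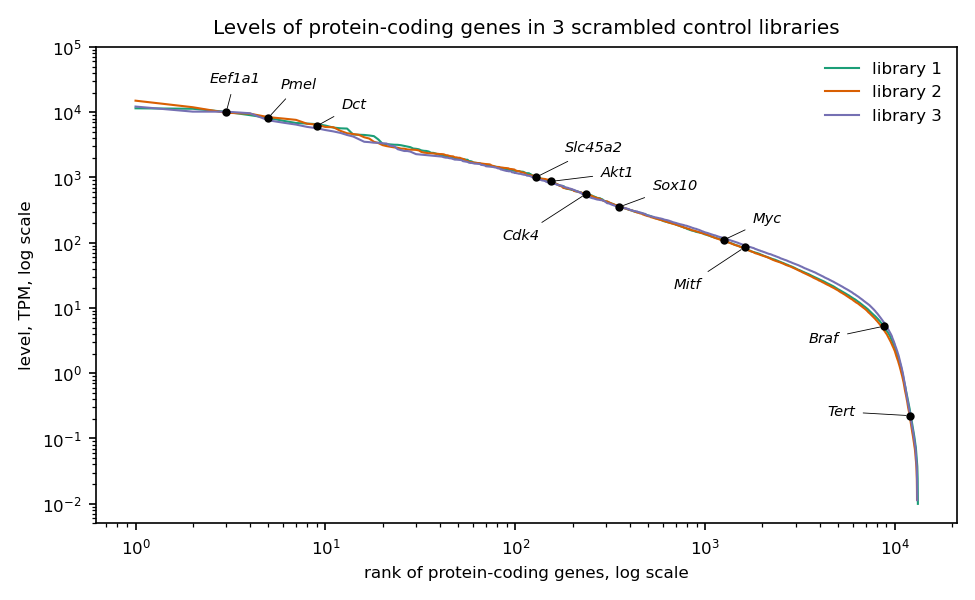
Protein-coding genes ranked by level in each of the 3 scrambled control libraries (coloured lines), with rank and TPM both on log scales; black points mark the mean level of named genes at their rank. The 3 curves nearly coincide, with Pmel and Dct among the 10 highest genes, Akt1 and Cdk4 above 500 TPM, and Braf and Tert in the falling tail.

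All 10 melanocytic markers were expressed in every library, with a median of 679.6 TPM. Together they took 3.46%, 3.43% and 3.36% of the counts of libraries 1, 2 and 3, a near-constant share. The lowest of the 10 was Pax3 at 51.4 ± 7.73 TPM, still above the median expressed gene. These markers fit the label of melanoma cells.

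Among the melanocyte regulators, Sox10, the factor that specifies the melanocyte lineage from the neural crest, was the highest at 284, 348 and 429 TPM. Mitf, the regulator of the pigment genes, was lower at 86.0, 65.2 and 104 TPM. Sox10 exceeded Mitf in every library, by 4.26-fold ± 1.02 on the TPM scale. Both were highest in library 3. Pax3 stood at 47.9, 46.0 and 60.2 TPM, and Tbx2, a T-box repressor of senescence genes, at 57.7, 60.0 and 81.2 TPM.

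Mc1r, the melanocortin receptor through which melanocytes sense α-MSH, was at 104, 104 and 125 TPM, and its level lay above that of Mitf in every library. Pomc, the precursor of its ligand, had 15, 35 and 18 counts. Kit, the receptor tyrosine kinase required for melanocyte survival, was at 11.9, 10.8 and 16 TPM, while its ligand Kitl had 2, 0 and 1 counts. Of the other members of the MITF family, Tfe3 and Tfeb lay at 9.79 ± 1.32 TPM and 9.67 ± 1.74 TPM and overlapped each other, and Tfec had 7, 8 and 5 counts. Mitf made up 80.8% ± 3.89 of the TPM of these 4 genes.

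Several neural crest and Wnt factors were not detected. Lef1, Sox2, Foxd3, Edn3 and its receptor gene Ednrb had 0 counts in all 3 libraries, Zeb1 had 0, 1 and 2 counts and Tfap2b had 0, 2 and 2 counts. In contrast, Zeb2 and Snai2, which are the epithelial-mesenchymal factors of differentiated melanocytes, were at 7.71 ± 1.89 TPM and 6.53 ± 1.39 TPM. Sox9 lay at 1.24 ± 0.0724 TPM and Pou3f2, the neuronal factor Brn2, at 1.98 ± 0.696 TPM. The list as a whole had 19 of 28 members expressed and 8 not detectable.

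Of 20 genes listed for dedifferentiation and the neural crest, 10 were not detectable. They were Egfr, Wnt5a, Tnc, Twist1, Twist2, Snai1 and S100a4 at 0 counts, Fosl1 with 1, 3 and 0 counts, the water channel Aqp1 with 2, 2 and 0 counts and Cdh1 with 3, 0 and 1 counts. Cdh1 encodes E-cadherin, which differentiated melanocytes carry and dedifferentiated cells lose, so it stands in the list as a gene of the opposite direction. The exons of S100a4 share 51.7% of their length with other genes on the same strand, where such reads may have been discarded as ambiguous. Those detected were led by Vim, the intermediate filament of mesenchymal and neural crest cells, at 543, 588 and 796 TPM. S100a1 and S100b, calcium-binding proteins, followed at 376 ± 73.3 TPM and 103 ± 3.23 TPM, and Nes, the neural stem cell filament, at 25.6 ± 8.25 TPM. Markers of the dedifferentiated state were detected as well. Chosen after their values were seen, Cdh2, which encodes N-cadherin, was at 22.1 ± 6.21 TPM, the receptor kinase gene Axl at 10.6 ± 3.62 TPM and the receptor gene Pdgfrb at 7.62 ± 1.98 TPM.

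The pigment and melanosome genes, a list of 32, were all expressed, with a median of 70.2 TPM. As a group they took 4.52% ± 0.0493 of the counts. Pmel was highest at 7396, 7642 and 9661 TPM, followed by Mlana, a melanosomal membrane protein, at 8187, 8007 and 6914 TPM. Pmel was highest in library 3 and Mlana was lowest there, so that the order of the pair differed between libraries.

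Among the enzymes, Tyrp1 stood at 5672, 5898 and 7533 TPM and Dct at 6576, 5939 and 5969 TPM. Tyr, tyrosinase, which carries out the first step of melanin synthesis, was far lower at 275, 214 and 225 TPM. Its libraries lay below all those of Tyrp1 and Dct. Gpr143, a melanosomal receptor, was at 71.0 ± 7.33 TPM, and Tpcn2, an ion channel of endosomes and melanosomes, was the lowest gene of the list at 4.54 ± 0.367 TPM. Slc45a2, a melanosomal transporter, was at 907, 949.6 and 1159 TPM. The following genes were named for their roles after their values were seen. Slc24a5, an ion exchanger, lay at 978 ± 51.2 TPM, and Oca2, an anion channel, at 29.1 ± 4.05 TPM. Of the transport chain that carries melanosomes to the cell tips, Rab27a was at 143 ± 16.9 TPM, Mlph at 307 ± 52.4 TPM and the motor Myo5a at 69.4 ± 22.3 TPM.

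Most markers of other cell types were not detectable, other than those of Schwann cells. Over 61 markers of 8 cell types, 43 were not detectable and 13 were expressed. The defining markers of T cells (Cd3e, Cd3d, Cd4 and Cd8a), B cells (Ms4a1), macrophages (Adgre1, Itgam and C1qa), endothelium (Cdh5, Kdr and Tek) and red cells (Hbb-bs and Hba-a1) were at 0 in every library. Krt1, Krt10 and Trp63 of keratinocytes and Lum, Col3a1 and Thy1 of fibroblasts were also at 0.

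Outside the Schwann cell list, 4 of 8 fibroblast, 1 of 8 endothelial and 2 of 8 macrophage markers were expressed. The highest of each list is given here. Col1a2, a collagen chain, had 13.8, 10.2 and 11.9 TPM while its partner chain Col1a1 had 16, 12 and 11 counts. Egfl7, a secreted vascular factor, was at 31.7, 36.1 and 24.4 TPM, and Lyz2, lysozyme, at 13.2, 10.0 and 10.6 TPM. Summed over each list, fibroblast markers gave 60.0 to 78.2 CPM, endothelial markers 31.6 to 52.8 CPM and macrophage markers 13.2 to 15.4 CPM. The other lists, of T and NK cells, B cells, keratinocytes and red cells, had 7 of 8, 6 of 6, 7 of 8 and 6 of 7 markers not detectable.

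The markers of Schwann cells, another neural crest lineage, were the one list with several high members, and 6 of 8 were expressed. Mbp, myelin basic protein, was at 177, 218 and 238 TPM, Pmp22 at 156 ± 18.6 TPM and S100b at 103 ± 3.23 TPM. Egr2, the factor that drives myelination, had 2, 0 and 0 counts. The genes Ddx3y, Eif2s3y, Kdm5d and Uty of the Y chromosome had 0 counts in all libraries, and Xist, the RNA that silences an X chromosome, had 0, 0 and 1 counts.

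**Figure D2:**
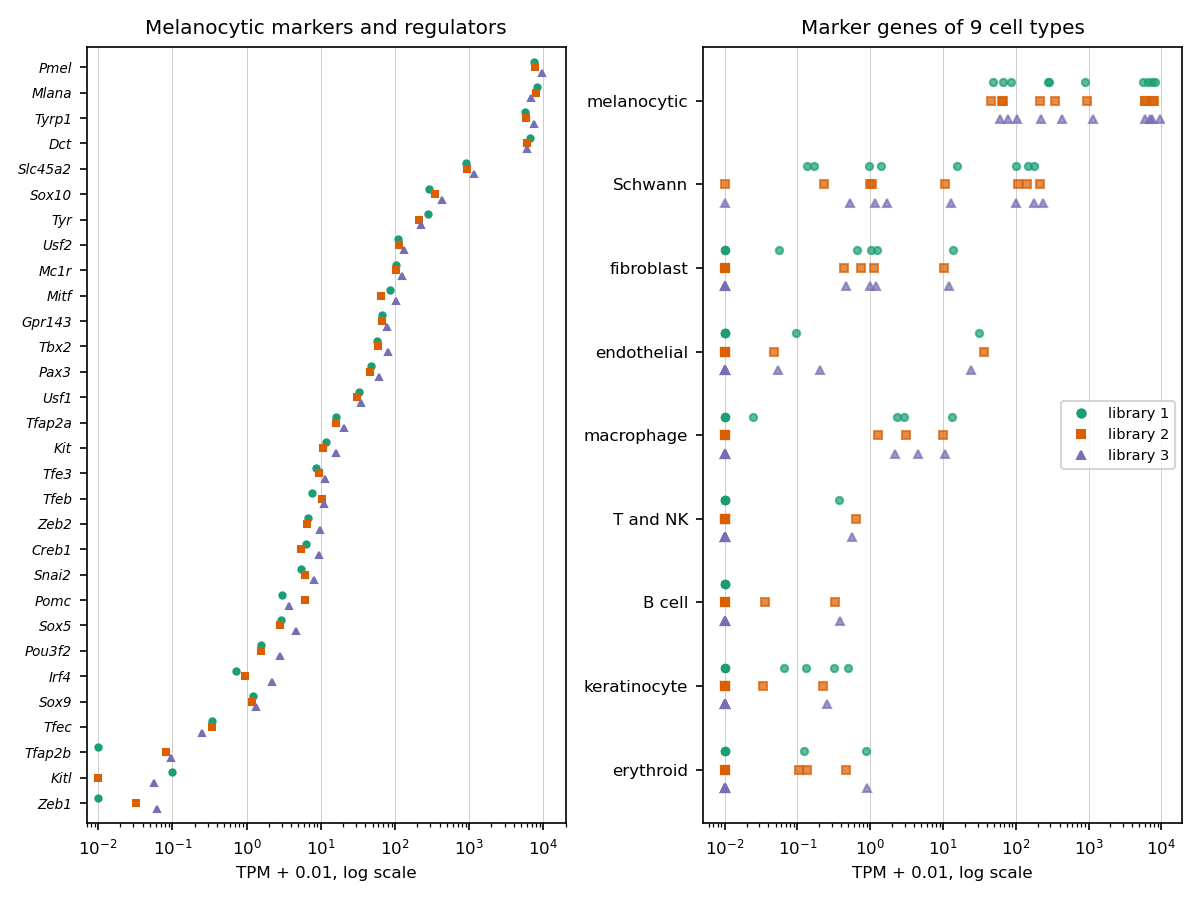
Left, TPM of melanocytic markers and regulators with at least 1 count; right, TPM of every marker gene of 9 cell types; both on a log scale after adding 0.01, with 1 symbol per library. All melanocytic markers lie above 40 TPM in all 3 libraries, while most markers of T cells, B cells, keratinocytes and red cells sit at the left edge, where a gene has 0 counts.

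Among 27 receptor tyrosine kinases, 18 were expressed and 9 were not detectable. Met, the receptor of hepatocyte growth factor, was the highest at 125, 98.2 and 173 TPM, and exceeded Kit in every library by 10.2-fold ± 0.910 on the TPM scale. The collagen receptors Ddr1 and Ddr2 followed at 66.3 ± 14.3 TPM and 32.8 ± 4.98 TPM, and Ephb4 at 17.0 ± 4.30 TPM. Egfr, Erbb4, Ros1, Alk and Kdr had 0 counts in every library. Ret, Fgfr2 and Flt1 had 0 to 2 counts in each library.

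All 30 genes of the RAS, RAF and MAP kinase list were expressed, with a median of 32.9 TPM. The RAS GTPase gene Hras was at 72.3, 76.5 and 72.4 TPM, and it did not overlap Nras at 35.4, 28.6 and 44.0 TPM. Nras was highest in library 3. The kinase gene Araf was at 29.6, 24.4 and 28.3 TPM, and Braf, the most often mutated kinase of human melanoma, was lower at 5.28, 3.86 and 6.67 TPM, with no overlap between them.

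Downstream, the MEK genes Map2k1 and Map2k2 lay at 91.1 ± 15.1 TPM and 88.8 ± 20.8 TPM, and the ERK gene Mapk3 at 99.4 ± 20.9 TPM. The highest genes of the list were Dusp4 (185, 186 and 282 TPM) and, at rank 3, Dusp6 (147, 137 and 182 TPM), phosphatases that ERK signaling induces and that switch ERK off. Rac1, a GTPase of cell movement, stood between them at 207 ± 40.7 TPM, with 51.4% of its exons opposite another gene. The feedback inhibitors Spry2 and Spry4 differed widely, at 39.3 ± 3.75 TPM and 4.24 ± 0.768 TPM. The lowest gene was Etv1, an ETS factor, at 2.72 ± 0.696 TPM.

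All 27 genes of the PI3K, AKT and mTOR list were also expressed. The ribosomal protein gene Rps6, a substrate of the pathway, led at 1308 ± 121 TPM. Akt1 followed at 11318, 14298 and 16021 counts, or 738, 808 and 1066 TPM. Akt2 was at 25.7, 25.3 and 38.8 TPM, so that Akt1 exceeded Akt2 by 29.4-fold ± 2.29. Akt1 lay above Akt2 in every library, and no annotated exon overlaps Akt1 on the other strand.

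The rest of the pathway lay well below Akt1. The translation repressor Eif4ebp1 was at 143 ± 20.2 TPM and the cap-binding protein gene Eif4e at 93.5 ± 2.54 TPM. The catalytic PI3K subunit Pik3ca was at 14.6 ± 3.71 TPM, the mTOR kinase gene Mtor at 8.54 ± 3.00 TPM, and its partners Rptor and Rictor at 11.0 ± 3.93 TPM and 8.85 ± 2.55 TPM. Foxo1, a transcription factor that AKT inactivates, was the lowest at 2.7 ± 0.815 TPM.

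Cell cycle genes were among the higher groups. Cdk4, the kinase that D-type cyclins activate, was at 594, 534 and 546 TPM, while its paralog Cdk6 had 1.47, 0.943 and 1.89 TPM, or 0.256% ± 0.0850 of the TPM of the pair. Ccnd1, the cyclin D that growth signals induce, was the highest of the D-type cyclins at 145, 159 and 231 TPM and did not overlap Ccnd2 (75.6, 64.9 and 119.9 TPM) or Ccnd3 (58.9, 70.6 and 92.0 TPM), which overlapped each other. Cdk2 stood at 228 ± 18.2 TPM, Cdk1 at 150.2 ± 10.9 TPM, Ccnb1 at 145 ± 11.2 TPM and Ccna2 at 144 ± 21.3 TPM.

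All 24 proliferation markers were expressed, with a median of 145 TPM. They were led by Pcna, the sliding clamp of DNA replication (864 ± 57.5 TPM), Rrm2, a ribonucleotide reductase subunit (621 ± 71.3 TPM), the helicase subunit Mcm3 (220.3 ± 41.7 TPM) and Cdc20 (214 ± 19.8 TPM), and Mki67 was the lowest at 55.5 ± 19.3 TPM. Of the cell cycle inhibitors, Cdkn1a (p21) was at 74.2, 109 and 122 TPM, Cdkn1b (p27) at 64.3 ± 9.42 TPM, Cdkn2c at 70.2 ± 10.4 TPM and Cdkn2d at 137 ± 6.47 TPM. Cdkn1c had 5, 3 and 1 counts.

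Cdkn2a, which encodes the tumor suppressors p16INK4a and p19ARF, and its neighbour Cdkn2b, which encodes p15INK4b, had 0 counts in all 3 libraries. Cdkn2a lies on the minus strand at chr4:89274471-89294653 of GRCm38 and Cdkn2b at chr4:89306299-89311039. A count of 0 allows at most 0.284 to 0.319 CPM per library. The next protein-coding gene on one side, Mtap, an enzyme of methionine salvage, was expressed at 2830, 3070 and 3000 counts, or 236 ± 16.7 TPM, with a CV of 1.85%.

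Counted from Cdkn2a away from Mtap, the 8 protein-coding genes from Cdkn2a to Tusc1, over chr4:89274471-93335511, had 7 counts in all libraries together. All of those counts were on Gm12666, a gene model with 2, 3 and 2 counts. Dmrta1, Zfp352, Elavl2, Izumo3 and Tusc1 were at 0, and the next gene, Caap1, a regulator of apoptosis, had 130, 149 and 135 counts. Several genes of the run are normally active in few tissues, and counts of RNA cannot tell a gene that is missing from one that is silent. Klhl9, farther along on the Mtap side, had 578, 444 and 554 counts, and the interferon genes Ifnb1, Ifna4 and Ifne had none.

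The other tumor suppressors, 22 of the 24 listed, were expressed. Trp53 was at 54.4, 61.0 and 84.0 TPM, and Mdm2, a target of p53 and its ubiquitin ligase, at 59.2, 51.8 and 66.6 TPM, which was 7.10-fold ± 1.21 above its paralog Mdm4. Ddx3x, an RNA helicase, was the highest at 134 ± 42.3 TPM, ahead of Nf2 (62.1 ± 14.6 TPM), Bap1 (48.8 ± 4.77 TPM) and Stk11 (48.6 ± 5.71 TPM). Rb1 was at 9.26 ± 1.91 TPM, Apc at 7.69 ± 2.41 TPM and Nf1, the RAS inhibitor neurofibromin, at 5.28 ± 1.80 TPM. The median over all 24 members was 13.4 TPM, against 15.7 TPM over expressed genes alone, and that of the melanoma oncogenes was 38.0 TPM. The 2 lists were chosen by hand and differ in gene length, and their medians were not tested against each other.

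Among 30 melanoma oncogenes, 27 were expressed. After Akt1, the highest was Ctnnb1, which encodes β-catenin, at 579.6, 591 and 797 TPM, although 14.6% of its exons lie opposite another gene. Myc was at 106, 97.5 and 129 TPM, while its paralog Mycn had 0 counts and Mycl 2, 0 and 1 counts. The survival genes Mcl1, Bcl2l1 and Bcl2 stood at 128 ± 17.5 TPM, 32.2 ± 5.70 TPM and 6.79 ± 1.30 TPM. The G protein genes Gna11 and Gnaq, mutated in uveal melanoma, lay at 66.9 ± 17.0 TPM and 17.6 ± 5.03 TPM, the methyltransferase gene Ezh2 at 62.1 ± 7.66 TPM and the Hippo effectors Yap1 and Wwtr1 at 40 ± 8.50 TPM and 13.5 ± 3.82 TPM. Tert, the catalytic subunit of telomerase, had 7, 5 and 3 counts, and Nedd9, a scaffold of metastatic melanoma, 10, 16 and 17 counts.

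**Figure D3:**
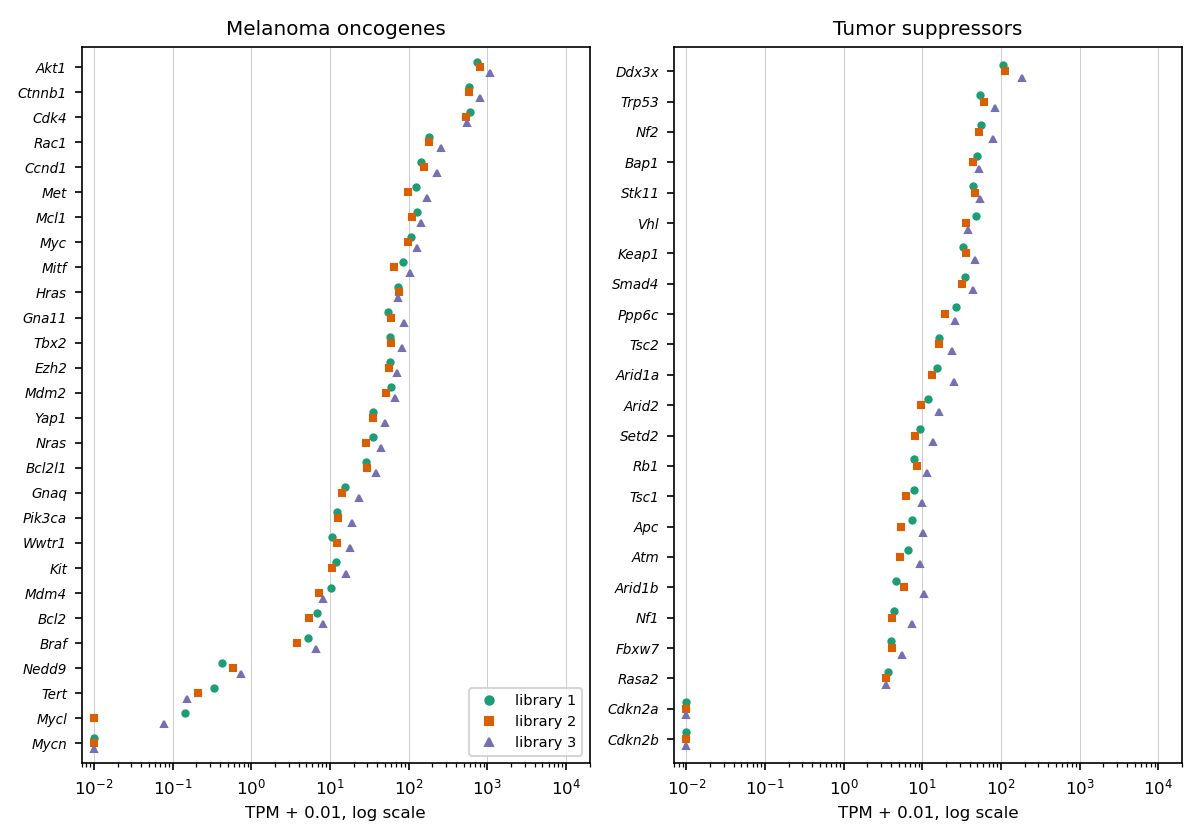
TPM of listed melanoma oncogenes (left) and tumor suppressors (right) in the 3 scrambled control libraries, on a log scale after adding 0.01, 1 symbol per library. Akt1, Ctnnb1 and Cdk4 stand above 500 TPM in every library, and Cdkn2a and Cdkn2b sit at the left edge with 0 counts.

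Of 27 genes of the interferon receptors and the JAK-STAT pathway, 25 were expressed. The median over all 27 was 11.8 TPM, against 15.7 TPM over expressed genes alone. Ifngr1, the ligand-binding chain of the interferon-γ receptor and the gene targeted in the other cells of the study, had 154, 144 and 172 counts, or 14.5, 11.7 and 16.5 TPM. Ifngr2, the second chain, was at 40.3, 40.9 and 54.2 TPM, 3.19-fold ± 0.362 above Ifngr1 in TPM and higher in each library. The kinases that bind these chains, Jak1 and Jak2, were at 22.5 ± 6.51 TPM and 13.2 ± 2.76 TPM. The type I receptor genes Ifnar1 and Ifnar2 were at 29.4 ± 5.77 TPM and 18.5 ± 0.576 TPM.

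Of the transcription factors of the pathway, Stat6 was the highest at 71.0, 72.5 and 97.1 TPM, with Stat3 at 17.2 ± 5.22 TPM, Stat2 at 7.11 ± 1.09 TPM and Stat4 at 0 counts. Irf1, a factor that interferons induce, stood at 17.9 ± 1.71 TPM, and Irf9 at 3.89 ± 0.521 TPM. Of the inhibitors, Ptpn2 was at 30.7 ± 2.28 TPM, Socs3 at 11.8 ± 2.14 TPM and Socs1 had 8, 14 and 9 counts.

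Of 30 interferon-stimulated genes, 23 were expressed. The median over all 30, which includes those not expressed, was 1.95 TPM, against 15.7 TPM over expressed genes alone. A few stood far above it. Bst2, tetherin, was at 326, 355 and 307 TPM, Ifitm3, an inhibitor of virus entry, at 147 ± 18.6 TPM, and the chemokine gene Cxcl10 at 90.4, 90.2 and 113 TPM. Ifit2 was at 30.8 ± 6.67 TPM. Cxcl9, a chemokine that interferon-γ induces, had 1, 0 and 0 counts, and Gbp5 and Oasl1 had 1, 2 and 0 counts and 0, 2 and 0 counts.

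Antigen presentation showed a steep range. The chaperones Calr, Pdia3 and Canx, which also serve other proteins, were at 1542 ± 128 TPM, 974 ± 27.2 TPM and 582 ± 140.1 TPM. B2m, the light chain of class I molecules, was at 604, 685 and 711 TPM. The class I heavy chains were lower, with H2-D1 at 96.4, 123 and 119 TPM and H2-K1 at 18.7, 18.0 and 22.3 TPM, so that B2m exceeded H2-K1 by 34.0-fold ± 3.40. Class I genes are near-identical to each other, and reads that map to several of them may have been left out.

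The peptide transporter genes Tap1 and Tap2 were at 3.98 ± 0.424 TPM and 8.72 ± 1.69 TPM, and the immunoproteasome subunits Psmb8 and Psmb9 at 4.45 ± 0.407 TPM and 3.05 ± 0.341 TPM, while Psmb10 was at 58.4 ± 1.39 TPM. Nlrc5, the activator of class I genes, had 17, 13 and 11 counts, and Ciita, that of class II genes, 3, 7 and 9 counts. The class II genes H2-Aa, H2-Ab1 and H2-Eb1 were counted at 25, 24 and 25 counts, 18, 19 and 19 counts and 20, 12 and 15 counts. Cd274, the gene of PD-L1, was at 4.79, 3.07 and 5.04 TPM, and Cd47, a signal against phagocytosis, at 13.5 ± 1.40 TPM. Pdcd1lg2, which encodes PD-L2, and Nt5e, which encodes CD73, had 0 counts in every library.

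**Figure D4:**
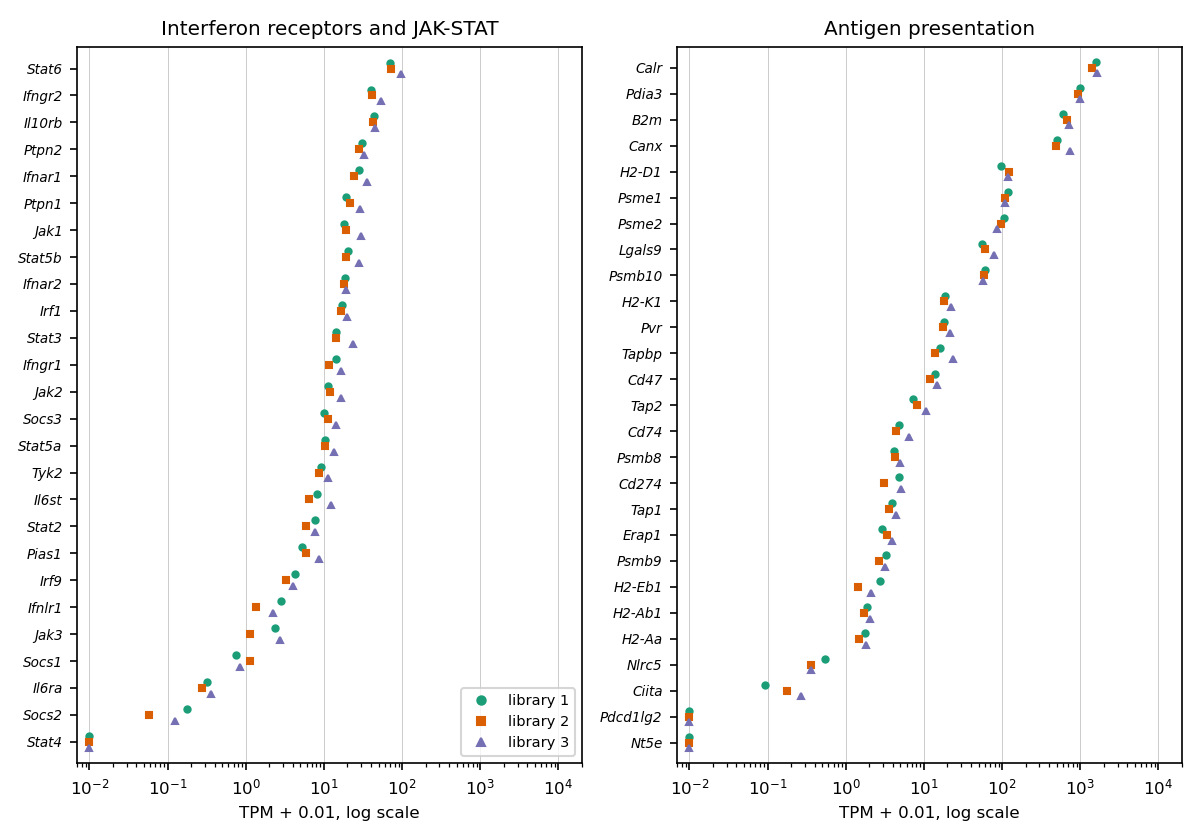
TPM of listed interferon receptor and JAK-STAT genes (left) and antigen presentation genes (right) in the 3 scrambled control libraries, on a log scale after adding 0.01, 1 symbol per library. Ifngr1 lies between 11.7 and 16.5 TPM, Stat4 at 0 counts, and the class I pathway runs from Calr at over 1000 TPM to Nlrc5 below 1 TPM.

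All 22 glycolytic genes were expressed, with a median of 59.4 TPM, and together they took 2.40% of the counts. Gapdh (2968, 4137 and 4481 TPM), Pgk1 (3121, 2959 and 3027 TPM), Aldoa (2219.7 ± 298 TPM) and Eno1 (1728 ± 375 TPM) were highest, and the neuronal enolase Eno2 was lowest at 5.76 ± 1.30 TPM. Gapdh and the summed list were lowest in library 1, where the list reached 20889 CPM against 25687 and 25488 CPM in libraries 2 and 3. The 29 nuclear genes of the respiratory chain had a median of 377 TPM and took 1.14% of the counts. They were led by the ATP synthase subunit Atp5b at 1376 ± 131 TPM and by Cox4i1 at 1326 ± 272 TPM.

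Hypoxia genes were lower, with Bnip3 (143 ± 24.3 TPM) and Higd1a (141 ± 16.9 TPM) highest and Car12 at 0, 0 and 2 counts. Lipid synthesis was led by the desaturase gene Scd2 at 464 ± 124 TPM. Of 31 genes that ATF4, the factor of the amino acid and stress response, is known to induce, 26 were expressed. Atf4 itself was highest at 540.4, 597 and 542 TPM, followed by Phgdh, the entry enzyme of serine synthesis, at 493 ± 7.43 TPM, while Fgf21 and Stc2 had 0 counts. The chaperones Hsp90ab1, Hspa8 and Hspa5 stood at 2884 ± 462 TPM, 1538 ± 109 TPM and 1533 ± 141 TPM, and the heat-inducible Hspa1a had 0 counts in every library.

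The matrix and adhesion genes were led by Sparc, a matrix glycoprotein, at 1265, 1397 and 1632 TPM, well above the integrin Itgb1 (269 ± 48.1 TPM), the protease inhibitor Timp2 (244 ± 29.9 TPM) and osteopontin, Spp1 (221 ± 10.4 TPM). Tnc had 0 counts, and Mmp9, Plau and Serpine2 had 0 to 2 counts in each library. Of the immediate early genes, which respond within minutes to serum, Myc, Ier3 (76.5 ± 9.87 TPM), Ccn1 (69.8 ± 9.72 TPM) and Jund (61.4 ± 6.85 TPM) were highest, and Egr2, Fosb, Fosl1, Dusp5 and Ankrd1 were not detectable. Of cytoskeletal genes, Tmsb10, a thymosin that binds actin, was highest at 2812 ± 298 TPM, and Actb and Actg1 overlapped.

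The 84 cytosolic ribosomal protein genes took 9.17%, 9.47% and 6.79% of the counts of libraries 1, 2 and 3. The share was lowest in library 3. Of the 78 with at least 10 CPM, 73 were lowest in library 3 and 0 were highest there. Of all 9481 genes at that level, 2637 were lowest and 4926 highest in library 3. The tissue-restricted paralogs Rpl10l and Rpl39l had 0 counts and Rpl3l had 0, 1 and 0 counts. The translation factors were led by Eef1a1 and by Tpt1 (1981 ± 214 TPM), and 20 of 20 were expressed.

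The 3 cultures were alike in rank but differed beyond counting error. Across 13693 expressed genes, Pearson's r of log2(CPM + 1) was 0.990 for libraries 1 and 2, 0.985 for 2 and 3 and 0.984 for 1 and 3, where genes are not independent replicates. The common biological coefficient of variation that edgeR estimated was 15% over 13147 genes. It was 11.1% with library 3 left out, against 16% without library 1 and 16.9% without library 2, so the estimate was smallest without library 3.

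For genes of at least 10 CPM the median CV was 13.7%, where counting error alone gives 4.81%. The median was 13.9% for 7424 genes between 10 and 100 CPM, 12.9% for 1945 genes between 100 and 1000 CPM, and 15.2% for 112 genes above. The spread therefore did not fall steadily with the level above 10 CPM. With libraries 1 and 2 alone, the median CV was 8.07%.

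The differences between the libraries varied with gene length and with GC content. Protein-coding nuclear genes of at least 10 CPM were divided into 5 classes of equal size by exonic length. In library 3 the median log2 of the CPM over the mean of the libraries went from -0.12 in the shortest class (up to 2701 bases) to 0.22 in the longest (from 8072 bases). Library 2 went the opposite way, from 0.08 to -0.19, and library 1 less so, from 0.03 to -0.07. Over 8813 genes, Spearman's rho between length and the log2 ratio of library 3 to library 2 was 0.62, as a description across genes that share the 2 libraries. It was 0.39 for library 3 over library 1 and -0.27 for library 2 over library 1. The trend remained with TMM scaling, from -0.19 to 0.16 in library 3.

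Libraries 1 and 2 differed more with the GC content of the exons than with length, with a rho of 0.41 between GC and the log2 ratio of library 2 to library 1. From the class of lowest to that of highest GC, the median log2 went from 0.06 to -0.10 in library 1 and from -0.14 to 0.00 in library 2. Library 3 changed less, from 0.06 to 0.09, and its log2 ratio to library 2 had a rho of -0.13 with GC.

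The lists differed between libraries too. The lists highest in library 3 included the receptor tyrosine kinases, whose median length is 7679 bases, at a log2 of 0.24, and the tumor suppressors, with 6936 bases, at 0.24. Among those lowest there were the ribosomal proteins, at 1754 bases, at -0.32 and the nuclear respiratory chain, at 2178 bases, at -0.19. The lists did not follow their median length throughout, but a summed level weighs the highest genes of a list most. The PI3K, AKT and mTOR list, of 7721 bases, was at 0.08 in library 3. Its highest genes by CPM were Akt1, of 4098 bases, at 1375.5 CPM and Rps6, of 1586 bases, at 808 CPM. Of its 26 genes of at least 10 CPM, 19 were highest in library 3. The shorter cholesterol and fatty acid synthesis list, of 4892 bases, was at 0.23 there. The long noncoding RNAs, of 2431 bases, were the lowest of the plotted lists in library 3 at -0.42. The part of length or GC content in the spread of a list was not tested. The pigment genes were steady, with summed levels of 45726, 45164 and 44744 CPM and a median CV of 9.58%. Even so, 20 of the 30 with at least 10 CPM were highest in library 3, against 4926 of all 9481 genes at that level.

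The transcripts of the mitochondrial genome were high in library 1. They encode subunits of the respiratory chain and the RNAs that translate them. They took 1.05%, 0.486% and 0.564% of the counts of libraries 1, 2 and 3. Of 15 listed genes of the mitochondrial genome, 12 had at least 10 CPM, and all 12 were highest in library 1. Of all 9481 genes at that level, 2712 were highest there. mt-Co1, a subunit of cytochrome c oxidase, had 3458, 1505 and 1842 CPM, and mt-Cytb, of complex III, had 2653, 1245 and 1402 CPM. The nuclear partners of these subunits were mostly highest in library 2, with 18 of 29 highest there, 9 in library 1 and 2 in library 3. Library 3 was the lowest for 21 of them. Of all 9481 genes of at least 10 CPM, 1843 were highest in library 2 and 2637 were lowest in library 3.

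In all, 59 of 9481 genes of at least 10 CPM had a highest library over 2 times the lowest. Of these 59, 31 were highest in library 1, against 2712 of all 9481. Fewer genes passed in each pair of libraries, with 26 without library 1, 23 without library 2 and 17 without library 3. The 12 genes with the largest spread beyond counting error included 6 of the mitochondrial genome, with CVs from 43.7% (mt-Cytb) to 48.1% (mt-Nd5). They also included Gm13341, a pseudogene on chromosome 2, at 35.9, 18.1 and 15.9 CPM. The long noncoding RNA Neat1, the scaffold of nuclear paraspeckles, was at 110.5, 56.3 and 42.4 CPM, highest in library 1. Rn7sk, a short RNA that restrains transcription elongation and normally has no poly(A) tail, was at 12.9, 21.8 and 5.98 CPM, highest in library 2. The others were the gene models Gm49759 and Gm44649 and Trove2, which encodes the RNA-binding protein Ro60 and had 13.3, 8.13 and 20.2 CPM.

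Of 20 genes commonly used as references, the steadiest were Eef1a1 with a CV of 4.79%, Pgk1 with 6.84% and B2m with 7.65%. Polr2a was the least steady at 27.9%, with 94.2, 101 and 154 CPM, followed by Ipo8 at 27.2% and Actb at 22.5%, which had 1241, 1391 and 1890.1 CPM. These 3 genes were highest in library 3. The part of gene length or of depth in these CVs was not tested. Rpl13a, at 33.1, 30.0 and 23.3 CPM, shares 35.4% of its exons with other genes on the same strand and may be undercounted.

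**Figure D5:**
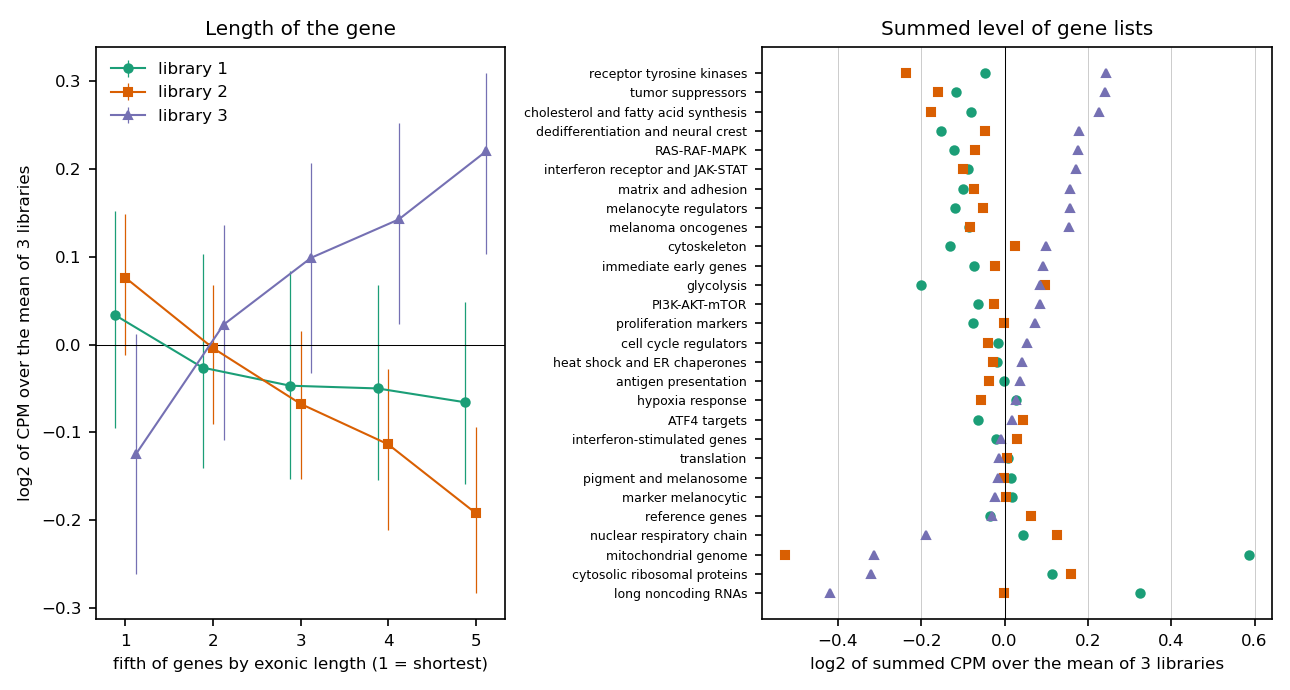
Left, median log2 of CPM over the mean of the 3 libraries in 5 classes of genes by exonic length, with bars from the 25th to the 75th percentile over genes; right, the same log2 ratio for the summed CPM of gene lists with at least 9 genes of 10 CPM. Library 3 runs from below 0 in short genes to above 0 in long genes, and the mitochondrial genome list is highest in library 1.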

How the data were processed

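The 3 scrambled control libraries were grouped by their labels, and the IFNγR1KO files were not used. The authors aligned reads to GRCm38 with STAR 2.7.5a and counted them with HTSeq 0.11.2, per the labels and the study's methods. The deposited files hold whole raw counts. The annotation release and strand setting are not given in the sources used here. The 5 summary rows of each file, of reads assigned to no gene, ambiguous or not uniquely aligned, were left out of totals.

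CPM was computed from total counts on genes, and TPM from the union exonic length in GENCODE M21, which holds 55154 of 55335 identifiers. The common biological coefficient of variation came from edgeR 4.0.16 (filterByExpr with a minimum count of 10 and total of 15, TMM, intercept only), a method tested on simulated data. DESeq2 1.42.0 was an alternative. Other alternatives were levels, scalings, length definitions, gene filters and leaving out each library. There is no comparison between groups, so no test was run. The members and the 38 gene lists were chosen with earlier results of these data known. Through RefSeq synonyms, 3 symbols were matched, and Asip and Norad had no match. Named genes are the 10 highest by CPM and by TPM, the top 4, the lowest and the undetectable members of each list, any gene of the lineage, signaling, cell cycle, suppressor, interferon and antigen presentation lists, the 12 most variable genes, and the reference genes with the 3 smallest and 3 largest CVs. Other genes named were chosen after their values were seen. Some list members are not reported here by name and are not plotted on a line of their own.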

Additional observations from a re-analysis of the deposited data

Results flagged for a closer look

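Reads that the counting assigned to no gene made up 47.4% ± 0.387 (SD, n = 3) of the reads the files list, between 46.9% and 47.7% per library. They were about as many as the reads on genes, which made up 46.7% ± 0.614, and they enter no level given above. Of the expressed genes, 17.7% have at least 10% of their exonic length opposite exons of another gene. Among 799 expressed genes annotated as antisense RNAs, this share was 79.8%, and among protein-coding genes 12.2%. Whether reads were counted with regard to strand is not given in the sources used here. Reads left out as ambiguous made up 1.57% to 1.85% of the reads listed per library. How far the reads of an antisense gene and of its partner were kept apart was not tested. Gm42418, a noncoding gene on chromosome 17 with 99.5% of its exons opposite another gene, had 3880.5, 4754 and 2055 CPM. It lies opposite CT010467.1, annotated as ribosomal RNA, which had 2058, 2719 and 1129 CPM. How many of the reads of either come from ribosomal RNA was not tested. A group of 3 libraries is too small for the rule on single samples far from the others, which was not applied.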

How the results depend on the processing

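The number of expressed genes ranged from 10941 to 14901 over its alternatives, which all stayed within 1.5 times the 13693 reported. The shares of the top 10, ribosomal and mitochondrial genes became 11.5%, 14.1% and 1.62% as shares of TPM, in place of 6.97%, 8.47% and 0.700% of counts; leaving out a library gave 6.88% to 7.04%, 7.98% to 9.32% and 0.525% to 0.807%. The biological coefficient of variation was 11.1% to 16.9% with a library left out and 11.6% as the median of DESeq2's gene-wise dispersions, which is another summary. Genes with a range over 2-fold numbered 12 at 50 CPM, 809 at 1 CPM, where counting error is larger, and 17 to 26 with 2 libraries, which have smaller ranges. Lists with a median level over all members above that of expressed genes alone numbered 17 or 18 in every alternative run. With the longest transcript as the length, 12 of 38 list medians moved by more than the SD between libraries. Lists with a median CV above that of all genes numbered 13 to 21. No paired analysis was possible because the 3 libraries form 1 group. TPM depends on the annotated length, genes under 10 CPM are limited by counting error, and 3 cultures of 1 line give no estimate for other lines.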
